A study of Rattus norvegicus with 20 samples.

Results

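Blood of rats with surgically induced reflux esophagitis that received STW5 at 2 ml/kg was compared with blood of rats that had the same operation and no treatment. The comparison rests on 8 of the 20 arrays of the study, 4 for each group, chosen by the titles of the samples. STW5 is a liquid preparation of medicinal plant extracts, given here for 7 days before surgery and 10 days after it. All 8 animals were Wistar rats with esophagitis, and their age and whether the untreated rats received a vehicle are not given in the labels. Each array held Cy3-labelled RNA of whole blood drawn into RNA-stabilising tubes. The other arrays came from operated rats given STW5 at 0.5 ml/kg or omeprazole at 30 mg/kg and from sham-operated rats. These 12 enter the fit, where all 5 groups share an estimate of the spread.

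Whole blood RNA is a mixture. Most of it comes from reticulocytes, the young red cells that still hold globin messages, and the rest from neutrophils, monocytes, lymphocytes and platelets, so a transcript can differ because its cells are more or fewer or because each cell holds more or less of it, and in bulk blood these cannot be told apart. Reflux esophagitis is an inflammation of the gullet lining by acid and bile, in which circulating neutrophils and monocytes are recruited by adhesion molecules and chemokines, and STW5 is used for functional disorders of the stomach and gut.

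The 8 arrays were checked before they were compared. Markers of neutrophils, monocytes, T cells, B cells, NK cells, red cells and platelets were well above background on all 8, except Ms4a1 of B cells with 3 STW5 and 3 untreated arrays. The skin, muscle and pancreas genes Krt5, Acta1 and Prss1 were not well above background on any of the 8 arrays, and the liver gene Alb was so on 1 untreated array. On untreated array 2, however, the collagen gene Col1a2 was at 5.63 (log2, relative to the array's 75th percentile). On untreated arrays 1, 3 and 4 it was at -0.99, -1.84 and 0.56. Among untreated arrays Thbd, Pgf, Sdc1 and Errfi1 also stood highest on array 2, but Etv5, Cma1 and Cxcl16 on array 4. The part of other tissue in this was not tested. The STW5 arrays were dimmer: the 75th percentile of their signal was 77.7, 71.3, 163 and 105, against 124, 166, 266 and 222 on the untreated arrays. Both STW5 groups lay on slide 2 and the untreated and sham arrays on slide 1, so slide and treatment cannot be told apart. Untreated array 1 was closer to the sham arrays (r = 0.977 to 0.992 across genes) than to the other untreated arrays (0.903 to 0.934), and the genes that passed depended on it. It was also closer to the STW5 2 ml/kg arrays (0.961 to 0.971) than to the other untreated arrays. Leaving it out thus removes an untreated array that resembled the treated ones, and genes that pass then are no separate support. The titles and the design text number the STW5 doses in opposite order, and the 8 STW5 columns of the authors' deposited value table match arrays of the opposite dose, number by number. Which is right is not settled here. Exchanging the doses makes each difference of 2 ml/kg from untreated rats that of the arrays titled 0.5 ml/kg, and values under that exchange are given with the gene lists it moves and the genes whose direction it turns.

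By limma, 0 of 15232 genes passed an adjusted p below 0.05 (0%), with a smallest adjusted p of 0.0685, for a probe with no gene symbol here. An unadjusted p below 0.05 was reached by 3583 genes, 2765 of them higher with STW5 (18.2%) and 818 lower (5.37%). In 509 genes all 4 STW5 arrays lay above all 4 untreated arrays (3.34%), and in 118 all lay below (0.775%). Deviations of arrays with the same replicate number correlated at 0.188 to 0.488, although only STW5 array 3 correlated best with the untreated array of its own number. In both groups arrays 1 and 2 were dimmer than arrays 3 and 4, and the part of signal level in these correlations was not tested. The labels do not say that the replicate numbers mark pairs, so genes that pass with a block on them have no known pairing behind them. With the number as a block 515 genes passed, 480 higher and 35 lower, and 0 passed with the block on the 8 arrays alone. Without untreated array 1, 3016 genes passed, 2467 higher and 549 lower, and 511 of the 515 were among them. Without STW5 array 3, the brightest of its group, 1038 passed, of which 982 were shared with those 3016 of 15232. These fits share most of their arrays, so the overlap is no independent check on the genes. With the signal level of each array as a covariate 0 genes passed, the smallest adjusted p was 0.807, and 896 genes reached an unadjusted p below 0.05. With the doses exchanged 0 passed and 906 reached it. The median change of all genes was 0.14 on the log2 scale, and -0.87 when arrays were scaled by their spike-in controls, under which 3713 genes passed, 3706 of them lower with STW5. Changes below are log2 differences, STW5 2 ml/kg minus untreated, ± standard error with 4 arrays per group. That error rests on the spread shared by all 5 groups, so it can understate the spread of genes that scattered among untreated rats. When limma was fitted to the 8 arrays alone, 0 genes passed, with a smallest adjusted p of 0.327. A level is the log2 signal relative to the 75th percentile of its array.

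**Figure D1:**
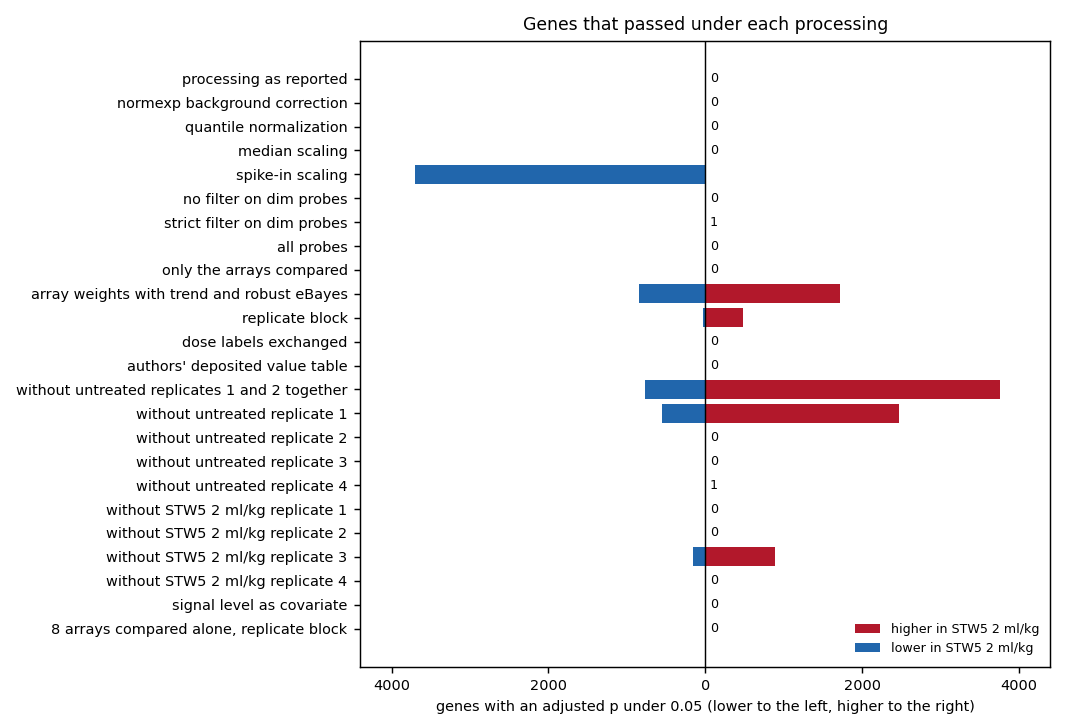
Number of genes with an adjusted p below 0.05 (horizontal axis, lower with STW5 2 ml/kg to the left, higher to the right) for each way of processing the arrays (rows). As reported 0 genes passed, 515 did with the replicate block, 3016 without untreated array 1 and 3713 with spike-in scaling, the last nearly all lower.

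The higher genes with the smallest p had STW5 and untreated arrays that did not overlap. Hif3a, a hypoxia-inducible factor subunit with forms that restrain the other subunits, had levels of 0.62, 0.38, -0.75 and 0.00 on the STW5 arrays, against -1.25, -2.35, -2.45 and -1.89 on the untreated arrays. Its difference was 2.04 ± 0.36 (adjusted p = 0.0971), and its probe lies at chr1:77377552-77377611 of rn4. The lowest STW5 array, number 3, still lay above the highest untreated array, number 1. Sytl4, whose product granuphilin docks secretory granules at the membrane, had levels of 0.40, 0.19, -0.58 and 0.00 in STW5 rats, against -1.28, -1.27, -1.45 and -1.58 in untreated rats, a difference of 1.40 ± 0.27 (probe at chrX:121483069-121483128). The untreated arrays of Sytl4 lay close together and STW5 array 3 was again the lowest of its group. Atxn7l2, a relative of a chromatin complex subunit, differed by 1.27 ± 0.25, with levels of 0.32, 0.48, -0.01 and 0.19 against -0.67, -1.33, -1.02 and -1.08 in untreated rats. Armcx6, an armadillo-repeat gene of the X chromosome, differed by 1.75 ± 0.36 and averaged -0.81 ± 0.54 in STW5 rats and -2.56 ± 0.56 in untreated rats (SD, n = 4 each). Or5h27, an olfactory receptor gene, differed by 2.04 ± 0.42 and averaged 0.45 ± 0.52 in STW5 rats and -1.58 ± 0.89 in untreated rats (SD, n = 4 each).

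The lower genes with the smallest p were spread widely among untreated rats. Thbd, thrombomodulin, which turns thrombin into an activator of protein C on endothelium and monocytes, had levels of -4.25, -4.38, -3.01 and -3.94 on the STW5 arrays, against -3.14, 0.91, -2.06 and 0.45 on the untreated arrays. The difference was -2.94 ± 0.65 (adjusted p = 0.0971), its probe lies at chr3:137158969-137159028 of rn4, and it was well above background on 1 STW5 and 3 untreated arrays. Untreated array 1 lay within the STW5 range, and untreated arrays 2 and 4 were far above it. Etv5, an ETS transcription factor gene, had levels of -3.21, -3.28, -3.01 and -3.08 in STW5 rats, against -2.30, 0.02, -1.78 and 0.82 in untreated rats, and differed by -2.33 ± 0.54. The groups of Etv5 did not overlap, but it was well above background on 1 STW5 array and 4 untreated arrays, and the same untreated arrays 2 and 4 stood highest. Cd81, a tetraspanin of the B-cell co-receptor found on many cells, had levels of 0.29, 0.11, 0.49 and 0.60 with STW5, against 1.16, 2.19, 0.89 and 1.43 without treatment. It differed by -1.05 ± 0.26, again with no overlap. Slc25a24, a mitochondrial carrier of ATP-magnesium and phosphate, differed by -1.67 ± 0.41 with overlap. Pgf, a growth factor of the VEGF family, was not well above background on any STW5 array but was so on all 4 untreated arrays. By group means it was at least 2.32-fold lower with STW5. That bound leans on untreated array 2, at -0.59, where the other untreated arrays were at -3.50, -2.97 and -2.79. Relative to all genes Pgf lay at -1.92, against -1.27 without untreated array 2 and -0.29 with normexp background correction.

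These 10 genes had adjusted p values of 0.0971 in the fit of all arrays. With the replicate block each passed, at 0.0467 to 0.0499, and without untreated array 1 each passed too, at 0.0152 to 0.0176. With the block on the 8 arrays alone none of them passed, at 0.0753 to 0.111. With signal level as a covariate each stood at 0.807. With the doses exchanged the changes relative to all genes ran from 0.24 to 0.91 for the 5 higher genes, against 1.13 to 1.90 as titled, and from -1.20 to -0.34 for the 5 lower genes, against -3.08 to -1.19.

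**Figure D2:**
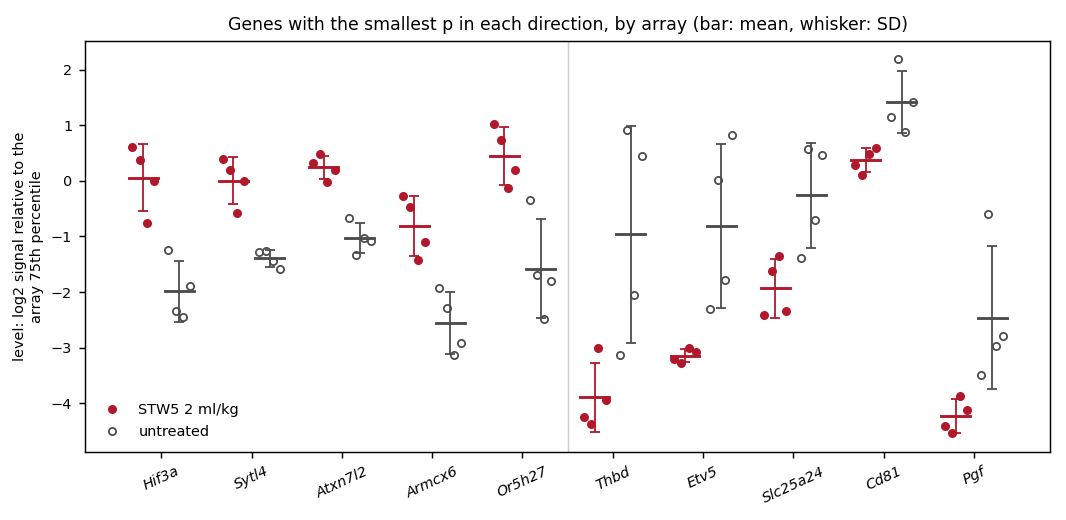
Levels (log2 signal relative to the 75th percentile of the array) of the 5 higher and the 5 lower genes with the smallest p, with STW5 2 ml/kg arrays as filled points left of the untreated arrays as open points, bars at the mean and whiskers of 1 SD (n = 4 each). The 5 genes on the left do not overlap between groups, while among the lower genes Thbd and Slc25a24 do and the untreated arrays are the more scattered.

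The scatter was general. The median SD of a gene was 0.50 among STW5 rats and 0.65 among untreated rats, and it was larger in the untreated group for 70.2% of the genes.

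Gene lists for blood cells were read against all genes tested, whose median was 0.14 and of which 59.8% were higher with STW5. The 33 lists held 886 symbols, of which 840 were on the array and 722 were tested, and 0 members of any list passed in the fit of all arrays. The number of members that passed the filter on dim probes stands with each list. Medians under other settings are given relative to the median of all genes under that setting. With spike-in scaling all 33 list medians lay below 0, from -1.65 for monocytes to -0.30 for erythroid genes, so each direction below is relative to the 75th percentile of the array.

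Transcripts of phagocytes lay lower. Of 18 monocyte genes tested (of 20), 14 were lower, with a median of -0.63, and 4 of them reached an unadjusted p below 0.05 in that direction, or 22.2% against 5.37% of all genes. Another 2, Cd300e and Ms4a7, reached it as higher (11.1%, against 18.2%). Cd68, a lysosomal protein of macrophages and monocytes, had levels of 2.32, 1.20, 2.63 and 1.23 in STW5 rats, against 1.91, 3.39, 2.89 and 4.80 in untreated rats, and differed by -1.40 ± 0.47 (adjusted p = 0.108). Only untreated array 1 lay inside the STW5 range, while untreated array 4 stood highest. Klf4, a transcription factor of monocyte differentiation, differed by -1.08 ± 0.33, or by 0.11 with the doses exchanged. Cd300e, an activating receptor of monocytes, lay the other way at 1.46 ± 0.40 and passed with the replicate block (adjusted p = 0.0499), and Csf1r, the growth factor receptor of these cells, lay at -0.45 ± 0.35, with a second Csf1r probe at 0.79. Relative to all genes Cd300e lay at 1.32, but at 0.48 with signal level as a covariate. The relative median of the list was -0.77 and ran from -1.05 to -0.40 when arrays were left out in turn. It was -0.30 with signal level as a covariate and -0.09 with the doses exchanged.

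Of 24 mature neutrophil genes tested (of 25), 17 were lower, with a median of -0.48, and 4 reached an unadjusted p below 0.05 as lower (16.7%) and 0 as higher. Cybb, the catalytic subunit of the phagocyte oxidase, had levels of -0.47, -1.52, -0.36 and -1.34 with STW5, against -0.71, 1.13, -0.34 and 1.28 without treatment, and differed by -1.26 ± 0.40. Untreated arrays 2 and 4 were high, untreated array 1 lay among those of STW5 and untreated array 3 at their upper end. Cd14, the endotoxin co-receptor, differed by -1.79 ± 0.66 and Itgb2, the shared chain of the leukocyte integrins, by -0.78 ± 0.28. The neutrophil list score was -0.08, -0.04, -0.02 and -1.24 on the STW5 arrays, against -1.0, 1.67, 0.17 and 0.62 on the untreated arrays. A list score averages, over the genes of a list, the level on that array relative to the gene's own mean over the 20 arrays. From this the median of the same relative levels over all genes tested on that array is subtracted. Without untreated array 2 the relative median of the list was -0.10, against -0.62 with all arrays, and without untreated array 1 it was -1.10, when 7 of its genes passed, all lower. With the doses exchanged it was 0.09. Among granule and precursor genes of neutrophils 8 of 12 were lower (median -0.27). Ms4a3, a gene of granulocyte precursors, was higher at 1.51 ± 0.42 (adjusted p = 0.0971, and 0.0499 with the block), and the relative list median of -0.41 turned to 0.21 without untreated array 2 and 0.47 with the doses exchanged. Relative to all genes Ms4a3 lay at 1.37, but at 0.44 with signal level as a covariate.

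Plasma cell genes were lower for all 7 tested of 10, with a median of -0.39, or -0.53 relative to all genes, which was -0.28 without untreated array 2, -0.12 with normexp and -0.05 with the doses exchanged. Sdc1, syndecan-1, a surface proteoglycan of plasma cells and epithelia, had levels of -3.21, -4.54, -1.50 and -3.55 in STW5 rats, against -2.10, 1.79, -2.01 and 0.92 in untreated rats (-2.85 ± 0.73), and was well above background on 1 STW5 array and 4 untreated arrays. The untreated arrays 2 and 4 were again the high ones. Cma1, mast cell chymase, did not overlap between groups, with -4.36, -2.72, -2.51 and -1.83 in STW5 rats, against -0.86, 0.77, -1.70 and 2.25 in untreated rats, a difference of -2.97 ± 0.80 (adjusted p = 0.0971, and 0.0499 with the replicate block). The list that holds Cma1, of eosinophils, basophils and mast cells, had a median of 0.04 over 12 genes tested of 20, and a relative median of -0.11 that turned to 0.30 with the doses exchanged. Its member Kit, the stem cell factor receptor, lay at 1.21 ± 0.49. Relative to all genes Kit lay at 1.07 and Cma1 at -3.11, and at 0.26 and -2.23 with signal level as a covariate.

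NK, T-cell and red-cell transcripts lay higher relative to the 75th percentile of the array, though in the NK, T-cell, B-cell and erythroid lists the groups overlapped for every gene tested. All 15 NK and cytotoxic genes tested (of 20) were higher, with a median of 0.54, and 2 reached an unadjusted p below 0.05 (13.3%, against 18.2% of all genes). Klrk1, the activating receptor NKG2D, had levels of 1.90, 1.90, 1.61 and 1.88 in STW5 rats, against 1.78, 0.52, 1.18 and 1.22 in untreated rats, and differed by 0.65 ± 0.22. The relative median of the list was 0.40, against 0.14 without untreated array 2, and turned to -0.36 with array weights. Of 20 T-cell genes tested 19 were higher, with a median of 0.59, and 0 reached an unadjusted p below 0.05 in either direction. Cd3g, of the T-cell receptor complex, had levels of 2.55, 3.20, 3.91 and 3.71 with STW5, against 3.98, 0.92, 2.68 and 2.82 without treatment, with untreated array 2 far below the others. The relative T-cell median of 0.45 turned to -0.27 without that array. B-cell genes were higher for 14 of 20, with a median of 0.37. Their relative median of 0.23 turned to -0.65 without untreated array 2 and to -0.04 with normexp background correction, and was 0.05 with the doses exchanged. Helper and regulatory T-cell genes were higher for 13 of 15 tested (of 24), with a median of 0.36, and 6 of the 15 reached an unadjusted p below 0.05 as higher (40%, against 18.2% of all genes) and 1 as lower (6.67%, against 5.37%). Pdcd1, the inhibitory receptor PD-1, differed by 1.34 ± 0.39 and Il13, a type 2 cytokine, by 1.33 ± 0.42. Tbx21, the T helper 1 factor, differed by 1.03 ± 0.34, or by -0.46 with the doses exchanged. The Tbx21 probe averaged 8.14 in STW5 rats, far above Cd3g at 3.34. With signal level as a covariate the relative changes of Pdcd1, Il13 and Tbx21 were 0.43, 0.25 and 0.13, against 1.20, 1.19 and 0.89 without it. Foxp3, the factor of regulatory T cells, lay at 0.33, Gata3, the T helper 2 factor, at -0.16 and Maf at -1.76. The relative median of 0.22 turned to -0.12 with no filter on dim probes and was 0.61 without untreated array 1. Ikzf2 of the same list, counted among the 6, was not well above background on any of the 8 arrays.

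Erythroid genes were higher for 34 of 37 tested (of 44), with a median of 0.71, and 4 reached an unadjusted p below 0.05 as higher (10.8%, against 18.2% of all genes). Alas2, the first enzyme of haem synthesis in red cells, had levels of 12.07, 12.18, 11.01 and 11.43 in STW5 rats, against 11.46, 11.01, 9.92 and 10.43 in untreated rats, a difference of 0.96 ± 0.37, or of -0.12 with the doses exchanged. The erythroid score was 0.81, 0.77, -0.77 and -0.86 on the STW5 arrays, against 0.28, 0.71, -1.38 and -1.29 on the untreated arrays. In both groups arrays 1 and 2, which had lower 75th percentiles than arrays 3 and 4, scored above them. With signal level as a covariate the relative median of 0.57 turned to -0.75. It was 0.19 without untreated array 3 and 0.28 with the doses exchanged. Platelet genes were higher for 17 of 21, with a median of 0.20 near that of all genes, or -0.24 relative to all genes with normexp and -0.18 with the doses exchanged, yet Selp, the adhesion receptor P-selectin, lay at -2.06 ± 0.76.

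**Figure D3:**
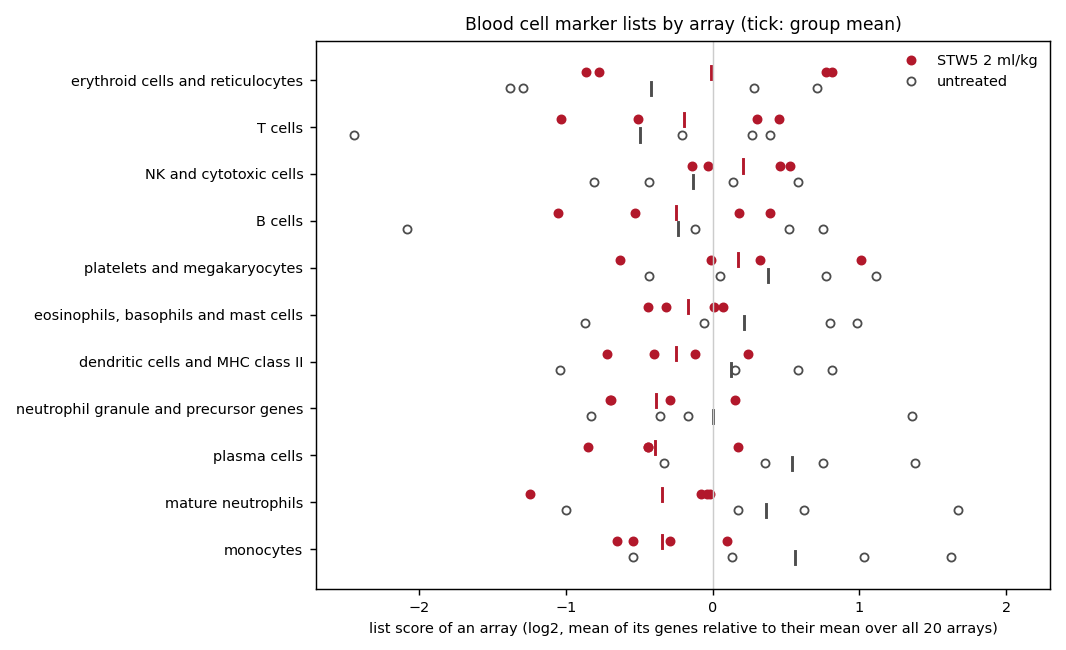
Scores of 11 blood cell lists (horizontal axis, log2, mean over a list of each gene's level relative to its mean over the 20 arrays), with STW5 2 ml/kg arrays as filled points above the untreated arrays as open points and a tick at each group mean. From each score the array's median of these relative levels over all genes tested was subtracted. The groups overlap in all 11 lists, and the T-cell score of untreated array 2 is the lowest point of the plot, at -2.44.

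Inflammation and stress genes were split. Of 22 inflammatory cytokines and NF-kB targets tested (of 31), 14 were lower, with a median of -0.27, and 6 reached an unadjusted p below 0.05 as lower (27.3%) and 2 as higher (9.09%). Cxcl16, a chemokine that also serves as a scavenger receptor, had levels of -2.68, -2.71, -2.31 and -4.69 in STW5 rats, against -1.67, 2.43, -2.42 and 2.66 in untreated rats, a difference of -3.35 ± 0.90, and was well above background on 2 STW5 and 4 untreated arrays. Icam1, the endothelial and leukocyte adhesion molecule, differed by -1.37 ± 0.41, Il18 by -2.08, Tnf by -1.01 and Nfkbia, the feedback inhibitor of NF-kB, by -0.87. Osm, oncostatin M, was higher at 1.19 ± 0.36 with no overlap, at 0.51, 0.18, -0.20 and 0.21 with STW5, against -0.28, -0.86, -1.71 and -1.22 without treatment, and Il1b lay at 0.82. Relative to all genes Osm lay at 1.05, but at 0.41 with signal level as a covariate. The relative median of the list was -0.41 with all arrays, -0.26 without untreated array 2, -0.11 with signal level as a covariate and -0.10 with the doses exchanged.

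Interferon-stimulated genes were higher for 28 of 31 tested (of 35), with a median of 0.42, but 2 reached an unadjusted p below 0.05 as higher (6.45%, against 18.2% of all genes). Ifit3, an antiviral effector, had levels of 3.64, 2.55, 2.86 and 1.09 in STW5 rats, against 1.03, 0.24, 1.89 and 1.16 in untreated rats, a difference of 1.46 ± 0.47. STW5 array 4 lay within the untreated range. Relative to all genes the list median was 0.28, against 0.13 without untreated array 2 and 0.02 with the doses exchanged, and it turned to -0.37 with array weights and -0.06 with no filter on dim probes. Bst2, tetherin, was lower at -1.36 ± 0.64, with untreated array 4 at 5.44 and the other untreated arrays at 1.73 to 2.36. Of 16 glucocorticoid-induced genes tested (of 21), 13 were lower, with a median of -0.35. Errfi1, a feedback inhibitor of the EGF receptor, did not overlap (-1.08 ± 0.38) and Klf9, a direct target of the glucocorticoid receptor, lay at -1.09 ± 0.36. The relative median was -0.50, against -0.25 without untreated array 2 and -0.01 with the doses exchanged. The immediate early genes had a median of -0.20 with 17 of 24 lower, and a relative median of -0.34 that turned to 0.10 with the doses exchanged, whereas Jund, an AP-1 subunit, was higher at 0.71 ± 0.24 with no overlap, but at -0.17 with the doses exchanged. Cxcr4, the chemokine receptor that holds leukocytes in marrow, was higher with no overlap, at 1.71, 1.96, 1.97 and 2.04 in STW5 rats, against 1.69, 0.71, 1.52 and 1.03 in untreated rats (0.68 ± 0.22). The other adhesion and chemokine receptor genes lay on both sides, with a list median of 0.05, and a relative median of -0.10 that turned to 0.22 with the doses exchanged.

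Metabolic genes lay on both sides. Fatty acid oxidation genes were lower for 20 of 26 tested (of 32), with a median of -0.36, and 6 reached an unadjusted p below 0.05 as lower (23.1%) and 0 as higher. Cpt2, which frees fatty acids from carnitine inside mitochondria, had levels of -3.01, -2.87, -1.67 and -2.55 with STW5, against -2.20, -1.31, -1.17 and -1.29 without treatment, and differed by -1.03 ± 0.27 (adjusted p = 0.0971, and 0.0499 with the replicate block). The groups overlapped through STW5 array 3 and untreated array 1, and 2 STW5 and 4 untreated arrays were well above background. Eci1 and Eci2, isomerases of the same pathway, lay at -0.86 ± 0.30 and -0.54 ± 0.21, and Eci2 at 0.04 with the doses exchanged. The relative median of the list was -0.50, and -0.72 to -0.35 with arrays left out in turn, but -0.06 with the doses exchanged. Glycolysis and hypoxia genes were lower for 22 of 33, with a median of -0.27: Pgam1, a glycolytic mutase, lay at -0.85 ± 0.26 and Bnip3, a mitochondrial autophagy receptor, at -1.76. Car9, a hypoxia-induced carbonic anhydrase, was higher at 1.35 ± 0.40 (adjusted p = 0.0973, and 0.0499 with the block) and Eno2, an enolase, at 1.22 ± 0.38. Relative to all genes Car9 and Eno2 lay at 1.21 and 1.08, but at 0.30 and 0.20 with signal level as a covariate. They lay at 0.20 and 0.16 with the doses exchanged. The relative median of this list was -0.42, against -0.16 with signal level as a covariate and -0.18 with the doses exchanged. Of 61 oxidative phosphorylation genes 31 were higher and 30 lower, and their relative median of -0.13 was 0.04 with the doses exchanged.

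The lists for oxidative stress defence (median -0.02 over 31 genes), iron (-0.04 over 16), proteasome and unfolded protein response (-0.12 over 32), cell cycle (-0.07 over 26), heat shock proteins (0.09 over 16), histones (0.20 over 14), eicosanoids (0.00 over 19) and the circadian clock (0.02 over 13) had medians relative to all genes of -0.26, for the proteasome list, to 0.06, for histones. With the doses exchanged these 8 lay between -0.19 and 0.12. AhR and drug-metabolism genes had a median of -0.48 over 13 tested of 28, and -0.08 relative to all genes without untreated array 2, against -0.62 with it and -0.33 with the doses exchanged. Within these lists Slc7a11, the cystine transporter of glutathione synthesis, lay at 1.18 ± 0.32, Gstm1, a glutathione transferase, at -0.61 ± 0.20 with no overlap, and Bmal1, a core clock factor, at -1.0 ± 0.33 with no overlap. Slc7a11 passed with the replicate block (adjusted p = 0.0499). Its relative change of 1.04 was 0.46 with signal level as a covariate. Dendritic cell and MHC class II genes had a median of -0.21 over 17, and MHC class I and antigen processing genes 0.26 over 19, or -0.22 relative to all genes with normexp, -0.40 with array weights and 0.02 with the doses exchanged. The 7 tested of 20 skin, muscle and liver genes had a median of -0.05, or -0.20 relative to all genes and -0.77 with the doses exchanged, and on untreated array 2 the collagen genes Col1a2 and Col3a1 reached 5.63 and 4.75. The 7 tested of 20 pancreatic enzyme genes were all higher, with a median of 0.67, and a relative median of 0.53 that turned to -0.11 with the doses exchanged and -0.14 with signal level as a covariate.

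All 76 tested genes of cytosolic ribosomal proteins (of 77) were higher with STW5, with a median of 0.56 and a range of 0.03 to 1.24, though with spike-in scaling the median was -0.45. An unadjusted p below 0.05 was reached by 22 (28.9%, against 18.2% of all genes), and 8 did not overlap between groups (10.5%, against 3.34%). Among them were Rpl37a, Rps10, Rpl4, Rpl29, Rpl28 and Rpl36, and adjusted p was at least 0.107 throughout the list. Rpl37a had levels of 10.14, 9.87, 9.30 and 9.72 in STW5 rats, against 9.14, 9.24, 8.65 and 8.88 in untreated rats, a difference of 0.78 ± 0.26, or of -0.24 with the doses exchanged. Rpsa, a protein of the small subunit, had levels of 6.86, 6.77, 6.37 and 6.80 with STW5, against 5.79, 6.47, 5.25 and 6.06 without treatment (0.80 ± 0.27, or -0.02 with the doses exchanged), where STW5 array 3 lay below untreated array 2. The list score was 0.23, 0.17, 0.14 and 0.08 on the STW5 arrays, against -0.07, 0.43, -0.95 and -0.12 on the untreated arrays, so that the STW5 arrays lay close together and untreated array 3, the brightest of the 8, lay far below. Relative to all genes the median was 0.42. It was 0.09 without untreated array 3, 0.09 with quantile normalization, 0.02 with normexp, 0.11 with signal level as a covariate and -0.01 with the doses exchanged.

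**Figure D4:**
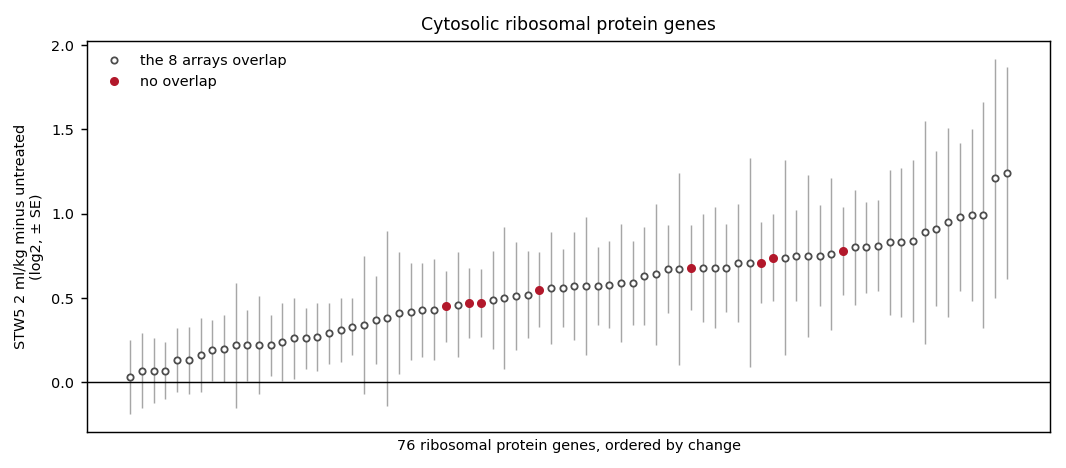
Difference in log2 level between STW5 2 ml/kg and untreated rats, with its standard error, for the 76 ribosomal protein genes tested, in order of size; filled points are the 8 genes whose arrays do not overlap between groups. All 76 points lie above 0, between 0.03 and 1.24 (with spike-in scaling the median was -0.45), and the genes that do not overlap are not those with the largest differences.

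Messages of ribosomal proteins share a run of pyrimidines at their start, through which their translation is regulated as a group. As background to this gene family, promoters of its members were read from RefSeq (build GRCr8) for the motif CTTTC within 15 bases on either side of the start. Promoters were found for 61 of the 76 genes. The motif stood on the gene's strand in 26 (42.6%), against 3.6% of all 27457 promoters, and on the other strand in 1 (1.6%), against 3.8%. These counts take the family whatever the change of each gene, so they have no bearing on a response to STW5. Of the 8 genes that did not overlap, 6 had a promoter in the table, and all 6 are shown, from 45 bases before the start to 15 after it, 5′ to 3′ on the gene's strand, with a motif in that window in capitals.
Rps10 (chr20:5700730-5700789, minus strand): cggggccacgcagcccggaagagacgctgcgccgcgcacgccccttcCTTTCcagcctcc
Rpl29 (chr8:115947598-115947657, plus strand): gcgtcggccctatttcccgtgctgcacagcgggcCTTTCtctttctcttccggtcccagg
Rpl28 (chr1:78083518-78083577, minus strand): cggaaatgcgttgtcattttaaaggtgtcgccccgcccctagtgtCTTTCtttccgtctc
Rpl37a (chr9:81748046-81748105, plus strand): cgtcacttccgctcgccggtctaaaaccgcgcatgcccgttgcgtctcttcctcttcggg
Rpl4 (chr8:73566432-73566491, plus strand): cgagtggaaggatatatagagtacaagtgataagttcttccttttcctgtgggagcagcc
Rpl36 (chr9:1533735-1533794, plus strand): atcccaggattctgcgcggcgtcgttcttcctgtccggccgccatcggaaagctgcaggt
Rps10, Rpl29 and Rpl28 hold the letters CTTTC in the window, and Rpl37a, Rpl4 and Rpl36 do not. These letters do not stand for every run of pyrimidines, since Rpl37a and Rpl4 hold unbroken runs of c and t across the start without them.

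Whether the higher dose differed from the lower was tested directly, since both share the untreated arrays. By limma, 0 genes passed in STW5 2 ml/kg against 0.5 ml/kg (0%), with a smallest adjusted p of 0.054, and an unadjusted p below 0.05 was reached by 2977 higher genes (19.5%) and 1075 lower genes (7.06%). The count was 3756 with normexp, 3410 of them higher, 7759 with spike-in scaling, all lower with a median change of -1.09, and 806 without STW5 2 ml/kg array 3. Exchanging the doses turns the sign of each difference between them. Slc66a3, a member of a family of lysosomal transporters, had levels of -2.13, -2.30, -1.82 and -2.93 at 2 ml/kg, against -0.88, -0.55, 0.49 and -1.19 at 0.5 ml/kg, a difference between doses of -1.76 ± 0.32. The doses did not overlap, and at -1.26, -0.75, -1.56 and -1.18 the untreated arrays lay nearer to the lower dose. Trappc8, a subunit of a vesicle tethering complex, differed between doses by -1.43 ± 0.25 and from untreated rats by -0.83 ± 0.25 at 2 ml/kg and 0.59 at 0.5 ml/kg. Pik3c2b, a lipid kinase gene, differed between doses by 1.28 ± 0.24, and from untreated rats by 1.12 ± 0.24 at 2 ml/kg (adjusted p = 0.0971, and 0.0499 with the replicate block) and -0.15 at 0.5 ml/kg. Srp72 of the signal recognition particle differed between doses by 0.98 ± 0.18, but its 2 other probes gave -0.12 and -0.40 for 2 ml/kg against untreated rats, where the probe used gave 0.48 ± 0.18, or -0.50 with the doses exchanged. Among the leading genes above, the difference at 0.5 ml/kg against untreated rats was 0.94 for Hif3a, where it was 2.04 at 2 ml/kg, and -1.10 for Thbd, where it was -2.94 at 2 ml/kg.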

How the data were processed

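RNA of whole blood was hybridised to 1-colour Agilent rat arrays, 1 per sample, and the replicates carry only numbers in the labels. The deposited scanner files give an intensity per spot, background-subtracted by Agilent's Feature Extraction (version 10.7.3.1) according to the file headers. The values the authors deposited besides are, for each spot, a ratio to its array's median, as found by setting it against the scanner files. They served as an alternative, since 12 columns match their own array and the 8 of STW5 match the other dose.

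Of 30367 probes, 21392 were named through a RefSeq gene table and 8975 kept the name in the file. A level is log2 of the processed intensity, averaged over spots not marked as outliers, less that of the 75th percentile of its array. Probes well above background on at least 4 of 20 arrays were tested (17236), and the brightest probe stood for a gene, which left 15232 genes, 10901 with a symbol. Limma 3.58.1 in R 4.3.3 (files read with data.table, version 1.17.8) fitted 5 group means to all 20 arrays, with 15 residual and 4.22 prior degrees of freedom, two-sided, with Benjamini-Hochberg adjustment over all genes and a threshold of 0.05. The fit was also run on simulated data with independent noise and the same spread in every group. These arrays differ in spread and signal level between groups, so that run cannot tell how the fit behaves under such differences. P values set each difference against a spread between samples that was estimated from all 5 groups, not from the compared groups alone. The 4 arrays per group limit precision (median standard error 0.353).

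For samples with the same replicate number, 1 to 4, deviations from the group means correlated at 0.196, 0.336, 0.488 and 0.188, all above 0.1. A block on the number was therefore fitted as an alternative, and its result is given where it alters a call. The labels do not say that the numbers mark pairs. STW5 arrays 1 to 4 correlated best with untreated arrays 2, 1, 3 and 3, so 1 of the 4 matched its own number. Genes with a symbol that passed and did not overlap were to be named, and since 0 qualified, the 5 of smallest p per direction were taken, with the 3 members of smallest p from each list, 3 genes per direction for the doses, and defining cell markers. Some other members are given by value. A fold given as at least is a bound: the brighter group over, on each array of the dimmer group, whichever was brighter, the probe itself or the dimmest probe that still counted as well above background. Alternatives were normexp (offset 50), quantile, median and spike-in scaling, filters, all probes, the 8 arrays alone, array weights, the block, exchanged doses, the deposited table and arrays left out. Signal level as a covariate and the block on 8 arrays were added after seeing the data. The members, lists and tests were chosen with earlier results of these data known. Pairing of the doses was checked the same way (0.513, -0.439, 0.166 and 0.204). Promoters came from RefSeq, build GRCr8. Some members of the lists are not reported here.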

Additional observations from a re-analysis of the deposited data

Results flagged for a closer look

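Of 290 sets of 4 arrays examined (levels of named genes, list scores and the 75th percentile, in each group), 18 held an array farther from the other 3 than Dixon's test allows at the 95% level, or 6.21%, where chance gives about 1 in 20. Among STW5 arrays, array 3 stood apart for Klrk1 at 1.61 (others 1.88 to 1.90), RT1-DMa, an MHC class II chaperone, at 2.38 (1.24 to 1.40), Pdcd1 at -0.13 (0.55 to 0.61), Ppp1r3g at -3.24 (-2.56 to -2.45) and Fam118b at -3.64 (-4.50 to -4.39). The proteasome and unfolded protein response score of that array was 0.00 (-0.35 to -0.33). STW5 array 4 stood apart for Cxcl16 at -4.69 (-2.71 to -2.31), Col1a2 at -1.16 (-0.63 to -0.57) and the mature neutrophil score at -1.24 (-0.08 to -0.02).

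Among untreated arrays, array 1 stood apart for Uqcrq at -0.11 (others -1.35 to -1.20), Cpt2 at -2.20 (-1.31 to -1.17), Hspa9 at -0.43 (-1.29 to -1.19) and Srp72 at 0.01 (0.38 to 0.42). Array 2 did for Klf9 at 1.52 (-0.26 to 0.04), Errfi1 at 0.48 (-1.84 to -1.67) and the histone score at 0.63 (-0.16 to -0.13). Array 3 did for Cdh5 at -2.68 (-2.24 to -2.16) and array 4 for Bst2 at 5.44 (1.73 to 2.36). Fam118b was not well above background on any STW5 array, so its level there is a bound.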

How the results depend on the processing

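Counts of genes that passed depended on scaling and on single arrays. Against untreated rats 0 passed as reported, while 3713 passed with spike-in scaling, 1 with the strict filter on dim probes, 2567 with array weights (whose estimation stopped before it converged), 515 with the replicate block, 4525 without untreated replicates 1 and 2 together, and 0 to 3016 with 1 array left out in turn. The count was 3016 without untreated array 1 and 1038 without STW5 array 3. Against STW5 0.5 ml/kg 0 passed as reported, 3756 with normexp, 55 with median scaling, 7759 with spike-in scaling (all lower), 5369 with no filter, 180 with the strict filter, 3 over all probes, 538 with array weights, 554 without the untreated arrays 1 and 2, 77 in the authors' deposited table and 0 to 806 with 1 array left out, where 243 and 144 passed without STW5 0.5 ml/kg arrays 1 and 4 and 806 without STW5 2 ml/kg array 3. The replicate numbers did not pair the STW5 doses, and the replicate block gave 529 there. With quantile normalization, with the 8 arrays alone (with or without the block) and with signal level as a covariate 0 passed against untreated rats. Of 111 named genes, 21 passed with the replicate block and 64 without untreated array 1, and 0 changed sides of the median of all genes in either.

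The following genes lay on the other side of the median of all genes, as relative log2 changes. With the doses exchanged these were Klf4 0.08, Tbx21 -0.49, Alas2 -0.14, Hbb -0.15, B2m -0.09, Calr -0.37, Trim21 -0.46, Jund -0.19, Egr3 -0.13, Fth1 -0.12, Ftl1 -0.26, Atp5mc3 0.00, Uqcrq -0.15, Eci2 0.01, Rpl37a -0.27, Rpsa -0.04, Rpl12 -0.06, Mcm6 0.14, Hspa9 -0.01, Hspb1 -0.63, Cdh5 -0.29, Clps -0.06, Amy2a3 -0.11, Npas2 -0.12, Pik3c2b -0.18, Ppp1r3g -0.74, Srp72 -0.52, Trappc8 0.57, Slc66a3 0.63 and Fam118b 0.94. In the authors' deposited table, whose STW5 columns hold that exchange, the same values stood, but Eci2 was at 0.02 and Trappc8 at 0.56. With signal level as a covariate these were Alas2 -0.07, Hbb -0.12, B2m -0.02, Calr -0.21, RT1-T24-4 -0.01, Egr3 -0.10, Gpx4 -0.02, Ftl1 -0.12, Uqcrq -0.02, Birc5 -0.12, H2aj -0.35, Hist1h4b -0.40, Hspb1 -0.14, Clps -0.25, Amy2a3 -0.04, Cpa1 -0.14 and Npas2 -0.19. With normexp these were RT1-T24-4 -0.04, Mcm6 0.01, Trappc8 0.03 and Fam118b 0.16, and with no filter RT1-T24-4 -0.01 and Srp72 -0.01. With 1 array left out in turn Cd247 ran from -0.01 to 1.00 and RT1-T24-4 from -0.02 to 0.68. The causes were not tested. Well above background were 46.1% to 55.7% of the spots in STW5 rats and 49.97% to 59.3% in untreated rats, which limits what dim genes can show.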

Other observations

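Probes of olfactory and vomeronasal receptor genes, a group chosen after its values were seen, lay higher with STW5. Of 1330 on the array 210 were tested and 204 of these were higher, with a median of 1.10, against 0.14 for all genes. An unadjusted p below 0.05 was reached by 134 as higher (63.8%, against 18.2% of all genes) and by 1 as lower (0.476%, against 5.37%), and 25 did not overlap between groups, all higher (11.9%, against 3.34%). Their score was 0.65, 0.66, 0.01 and 0.39 on the STW5 arrays, against 0.42, -0.45, -1.12 and -0.36 on the untreated arrays, so that untreated array 1 lay among the STW5 arrays. On the arrays titled STW5 0.5 ml/kg it was 0.16, -0.98, -0.22 and 0.03. The arrays with the higher 75th percentiles of each group had the lower scores, except untreated array 4 against array 2. The part of signal level in this was not tested.

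Genes were also put into 5 bins of equal size by their mean level. The brightest bin had a median difference of 0.28 and the dimmest 0.19, while the middle bin had 0.04. Lower genes reached an unadjusted p below 0.05 in 1.64% of the brightest bin and in 7.16% of the middle bin.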
